A study of Homo sapiens with 4 samples.

Results

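The m6A peaks described here are those that lie wholly inside 5 intervals of chromosome 19 (build hg19) that hold the KRAB zinc finger gene clusters: the first from 8.4 to 12.8 Mb, the second from 19.7 to 24.6 Mb, the third from 36.6 to 38.4 Mb, the fourth from 44.2 to 45.0 Mb and the fifth from 52.0 to 59.13 Mb. These intervals held 150 of the 10087 peaks listed for control cells and 183 of the 10323 peaks listed for FTO knockdown cells, 333 of 20410 in all. On the rest of chromosome 19 there were 441 control and 472 knockdown peaks. No peak of either list crossed an interval border. The assay was MeRIP-seq. Fragmented RNA is immunoprecipitated (IP) with an m6A antibody, and a peak is a stretch where the IP reads exceed those of the input RNA. The cells were RWPE1, an immortalized line of human prostate epithelium, made into stable lines with lentivirus and puromycin. The knockdown line (shFTO) carried a short hairpin RNA that targets FTO, and the control line (shCtrl) carried the vector. Each condition had 1 IP and 1 input library, so no comparison of the conditions below could be checked against replicates, and none was tested. Each list gives the position, strand and score of its peaks and holds no read counts, so the depth behind a peak is unknown, and peak lists alone cannot tell apart more m6A per transcript and more transcript.

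KRAB zinc finger proteins form the largest family of human transcription factors. They bind DNA through a row of C2H2 zinc fingers and recruit the corepressor TRIM28 through the KRAB domain, and many of them silence transposable elements. The zinc finger row of such a protein is usually encoded by a single long exon at the end of the gene, and the genes lie side by side in clusters, many of them on chromosome 19. The m6A mark is placed on mRNA by the METTL3 and METTL14 complex, lies preferentially in long exons and near stop codons, and is removed by FTO and ALKBH5.

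In the RefSeq gene table of GRCh38.p14, 265 of the 1451 protein-coding genes of chromosome 19 carried a symbol of the zinc finger families (ZNF, ZFP, ZIM, ZSCAN or ZKSCAN with a number, or PEG3), which was 46.6% of the 569 such symbols in the whole table. They formed 19 runs of at least 5 neighbours with no other protein-coding gene between them, and these runs held 212 genes. The longest run had 27 genes, from ZNF737 to ZNF681. A run of 24 genes reached from ZNF627 to ZNF791, another of 24 from ZNF565 to ZNF793 and one of 20 from ZNF283 to ZNF180. This table is on another build than the peaks and was used for names and order alone. The runs were not placed in the intervals of the peaks, so some of them may lie on the rest of chromosome 19. No peak was therefore assigned to a gene, no sequence was read under a peak, and whether a given peak lies in a zinc finger gene was not determined. The intervals also hold genes of other kinds, so the name of the clusters rests on the intervals and not on a check of each peak.

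The first and the fifth interval held most of the peaks. In control cells there were 47 peaks in the first interval, 11 in the second, 13 in the third, 5 in the fourth and 74 in the fifth. In knockdown cells the corresponding numbers were 69, 7, 12, 6 and 89. Per megabase, the control list had 10.7 peaks in the first interval and 10.4 in the fifth, against 2.24 in the second, and the knockdown list had 15.7, 12.5 and 1.43. The second interval was thus the sparsest in both lists. Its longest stretch between the starts of neighbouring peaks, or between a peak and the border, was 1.63 Mb in control cells and 2.32 Mb in knockdown cells.

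Peaks of the zinc finger clusters were wider than the other peaks of chromosome 19. The median width was 359 bp in the control clusters (95% interval of the median 274 to 467 bp) and 229 bp on the rest of the chromosome (205 to 257 bp). In knockdown cells it was 359 bp (310 to 513 bp) against 235 bp (202 to 289 bp). In control cells the lower quartiles were close, 139.2 bp in the clusters and 131 bp outside them, while the upper quartile was 1041 bp against 505 bp. In knockdown cells the upper quartile was 1380 bp against 623.8 bp, and the lower quartile was 213 bp against 138.8 bp. Peaks under 1000 bp had medians of 232.5 bp (174 to 289 bp) in the control clusters and 202 bp (182 to 222 bp) outside them, and of 256.5 bp (230 to 300 bp) and 189 bp (174 to 216 bp) in knockdown cells, so that in knockdown cells the narrower peaks differed as well. When the lower-scoring peaks of each list, those under its median score, were left out, the difference in median width was 92 bp in control cells (-42.1 to 457.4 bp) and 157 bp in knockdown cells (-24.9 to 582.5 bp), and both intervals include 0. These intervals, like the 95% Wilson intervals given for shares below, take in counting error alone, and no test was made because peaks of 1 library are not replicates.

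**Figure D1:**
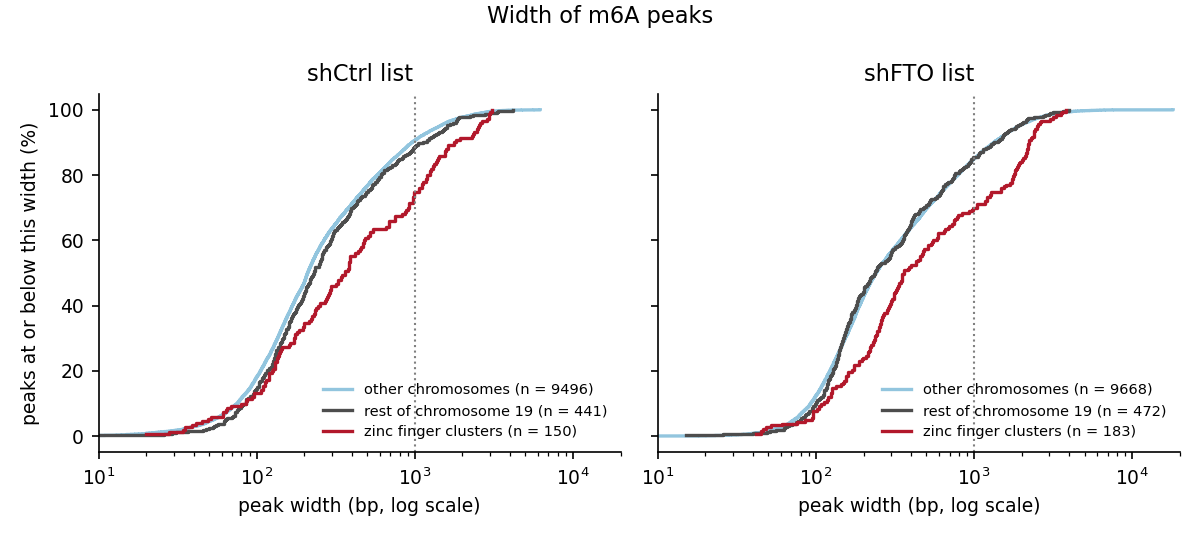
Cumulative share of m6A peaks (vertical axis, %) at or below a given width (horizontal axis, bp, log scale, shown from 10 bp) for the shCtrl list (left) and the shFTO list (right), with the dotted line at 1000 bp. Over most of its course the curve of the zinc finger clusters lies to the right of the rest of chromosome 19 and of the other chromosomes, and at 1000 bp it leaves 25.3% of the control and 30.1% of the knockdown peaks above it.

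Peaks of at least 1000 bp are called wide peaks here, a limit chosen after the widths were seen. Of all peaks in a list, 9.69% were wide in control cells and 15.3% in knockdown cells. In the zinc finger clusters 38 of 150 control peaks were wide, 25.3% (19.1% to 32.9%), and 55 of 183 knockdown peaks, 30.1% (23.9% to 37.1%). The rest of chromosome 19 had shares of 11.3% (8.71% to 14.6%) in control cells and 14.4% (11.5% to 17.9%). The clusters were thus higher by 14 percentage points in control cells (interval of the difference 6.90 to 22.0) and by 15.7 in knockdown cells (8.57 to 23.2). Above 2000 bp the shares were 8.67% against 2.27% in control cells and 15.9% against 4.45% in knockdown cells. Wide peaks made up 66.1% of the summed peak length of the control clusters and 73.9% of that of the knockdown clusters, against 44.8% and 51.0% on the rest of chromosome 19.

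The clusters therefore carried more of the wide peaks of chromosome 19 than of its peaks at large. They held 25.4% of the control peaks of the chromosome and 38 of its 88 wide peaks, or 43.2% (33.3% to 53.6%). In knockdown cells they held 27.9% of the peaks and 55 of 123 wide peaks, or 44.7% (36.2% to 53.5%). All 23 chromosomes with at least 100 peaks had a lower share of wide peaks than the clusters, in both lists. These shares ranged from 6.497% to 14.9% in control cells and from 11.9% to 19.8% in knockdown cells. In control cells chromosome 19 was highest with the clusters included. Without them its share was 11.3%, below the 14.7% of chromosome 16.

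The share of wide peaks differed among the intervals. It was lowest in knockdown cells in the first interval (14 of 69 peaks, 20.3%, 12.5% to 31.2%), followed by the third (3 of 12) and the fifth (29 of 89, 32.6%, 23.7% to 42.9%). The sparse second interval had 6 wide peaks among 11 in control cells (54.6%, 28.0% to 78.7%) and 5 among 7 in knockdown cells (71.4%, 35.9% to 91.8%). In control cells the first interval had 9 wide peaks among 47 (19.2%, 10.4% to 32.5%), the third 4 among 13 and the fifth 19 among 74 (25.7%, 17.1% to 36.7%). The fourth interval had no wide peak among 5 in control cells (Wilson interval up to 43.5%) and 4 among 6 in knockdown cells. Except for the fourth interval in control cells, each share was above that of the rest of chromosome 19 in the same list, although the interval of the first in both lists and that of the third in knockdown cells (8.89% to 53.2%) reached down to it. The second, the third and the fourth interval hold too few peaks to be ordered by width.

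**Figure D2:**
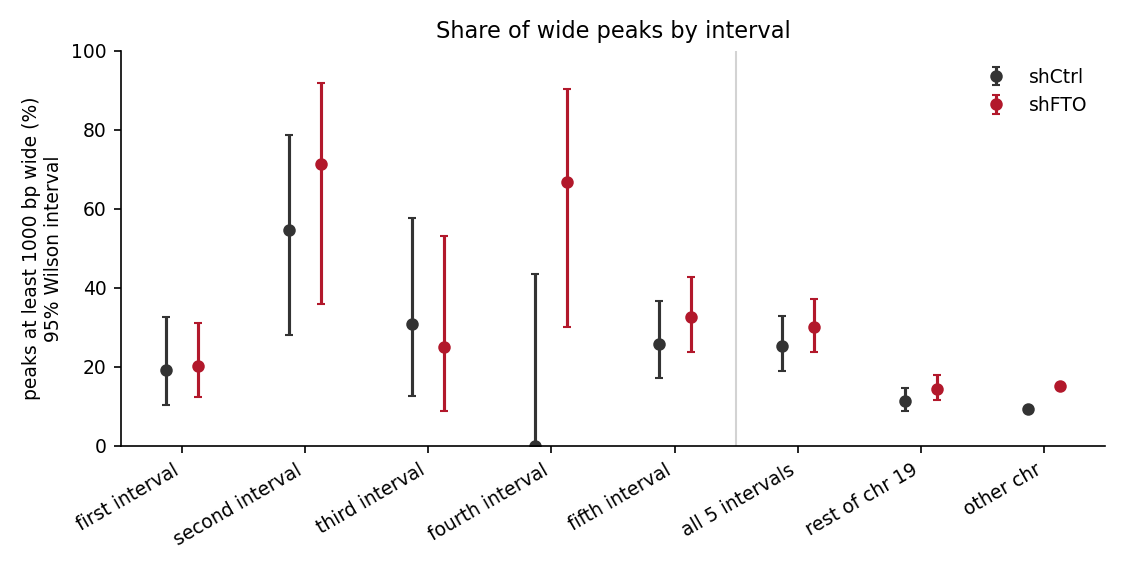
Share of peaks at least 1000 bp wide (vertical axis, %) in each of the 5 intervals, in all 5 together, on the rest of chromosome 19 and on the other chromosomes, with shCtrl in dark grey, shFTO in red and bars for the 95% Wilson interval. Over all 5 intervals the shares were 25.3% and 30.1%, against 11.3% and 14.4% on the rest of chromosome 19, and the bars of the second to the fourth interval are long because these hold between 5 and 13 peaks.

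The peaks of the clusters had lower scores than the rest of chromosome 19. The score is the peak caller's measure of the excess of IP over input reads, taken here as -10 log10 of its P value, the form MACS uses, and it was compared within a list only. The median score of the control clusters was 208.9 (166.5 to 262.9) against 302.6 (258.3 to 336.9) on the rest of the chromosome. In knockdown cells it was 248 (205.6 to 361.1) against 383.3 (330.3 to 443.9). Without the peaks of 3100 or more the difference in medians was -57.1 in control cells (-121.2 to 10.1), an interval that includes 0, and -101.3 in knockdown cells (-148.2 to -15.5). Scores under 100 were carried by 28.0% of the control and 25.1% of the knockdown peaks of the clusters, and by 20.4% and 14.6% of the other chromosome 19 peaks. Scores of 3100 or more, where many peaks share the value 3100, were found for 8 control peaks (5.33%) and 18 knockdown peaks (9.84%) of the clusters, against 10.2% and 13.4% on the rest of the chromosome, and the intervals of both differences included 0. Against the other chromosomes, whose median scores were 166.5 and 214.0, the cluster medians were higher by 42.3 (-0.536 to 96.7) and 34.0 (-9.14 to 147.3), and both intervals include 0.

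The first interval had the highest median score in both lists. It was 341 in control cells (209.1 to 668.6), which overlaps the intervals of the second, the third and the fifth, and 520.5 in knockdown cells (318.2 to 761.8), which overlaps that of the fourth. The first interval held 7 of the 8 control and 12 of the 18 knockdown peaks of 3100 or more. The fifth interval held the remaining 1 and 6 of these peaks and had medians of 189.4 (143.2 to 249.9) and 210.8 (166.1 to 310). No peak of the second, the third or the fourth interval reached 3100 in either list. Without the first interval the median score was 166.7 in control cells and 204.6 in knockdown cells, the median width was 467 bp and 539 bp, and the share of wide peaks was 28.2% and 36.0%. Of the 2 intervals with most peaks, the first thus had the smaller share of wide ones. Whether its high-scoring or its narrow peaks lie in zinc finger genes or in other genes was not determined.

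The lower scores were most marked among the wide peaks. Wide peaks of the clusters had a median score of 404.9 in control cells (236.9 to 682.2), while wide peaks on the rest of chromosome 19 had a median of 1849 (958.4 to 2759) and those of the other chromosomes of 950.2 (849.2 to 1027). In knockdown cells the medians were 532.9 (260.3 to 753.1), 1538 (1006 to 2152) and 806 (724.1 to 883). Among the narrow peaks of chromosome 19 the gap was smaller, with medians of 171.3 in the control clusters against 262.5 outside them and of 204.9 against 320.9 in knockdown cells. Of the wide peaks, 2 of 38 in the control clusters and 2 of 55 in the knockdown clusters had a score of 3100 or more, against 17 of 50 and 19 of 68 on the rest of the chromosome. As a description across peaks, which share a library and are not replicates, the Spearman correlation of width with score was 0.187 over the 150 control and 0.210 over the 183 knockdown peaks of the clusters, and 0.410 and 0.411 over the 441 and 472 other peaks of chromosome 19. Without the peaks of 3100 or more it was 0.227 and 0.339 in the clusters and 0.349 and 0.336 outside them. Below 3100 the relation in knockdown cells was thus as strong in the clusters as outside them, and in control cells it was weaker.

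**Figure D3:**
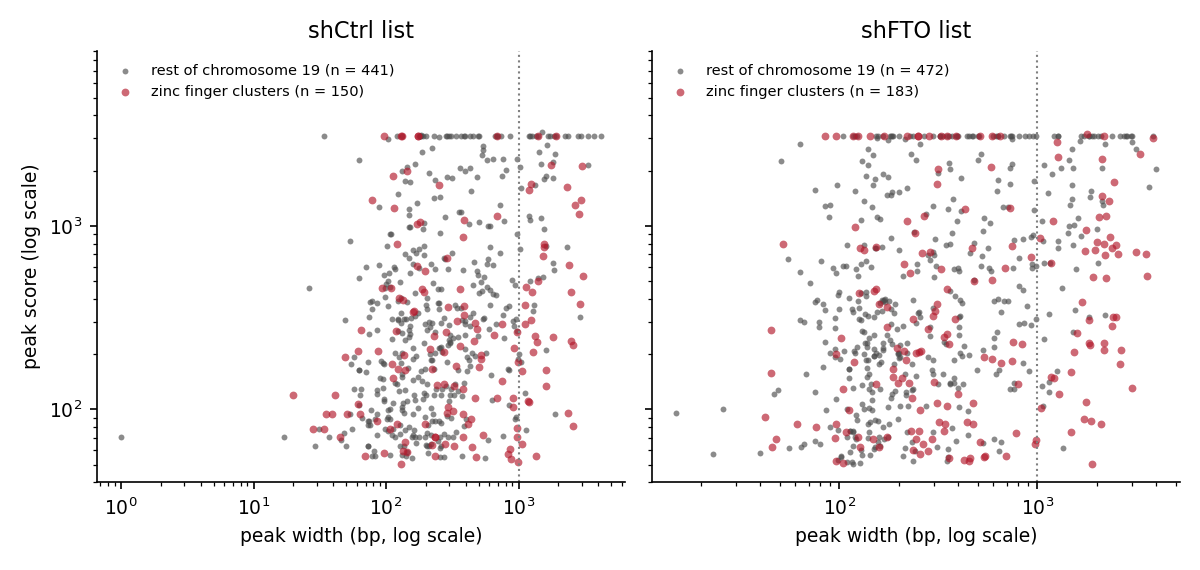
Peak score (vertical axis, log scale) against peak width (horizontal axis, bp, log scale) for the shCtrl list (left) and the shFTO list (right), with the zinc finger clusters in red and the rest of chromosome 19 in grey, 1 point for each peak. To the right of the dotted line at 1000 bp the red points spread over low and middle scores, with medians of 404.9 and 532.9, while many grey points lie on the line at 3100.

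The peaks of the clusters were spread over both strands. Of the control peaks, 78 lay on the plus strand and 72 on the minus strand (52.0% plus, 44.1% to 59.8%), and of the knockdown peaks 99 and 84 (54.1%, 46.9% to 61.2%). The rest of chromosome 19 had 55.8% and 58.5% of its peaks on the plus strand. The intervals of the differences, from -13.0 to 5.35 points in control cells and from -12.8 to 3.995 in knockdown cells, included 0. Neighbouring peaks of a cluster lay on the same strand in 95 of 145 cases in control cells (65.5%) and in 131 of 178 in knockdown cells (73.6%, 66.7% to 79.5%). Outside the clusters these shares were 68.6% and 66.9%. Wide peaks of the clusters were on the plus strand in 21 of 38 cases in control cells and in 26 of 55 in knockdown cells.

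Peaks of the clusters were shared between the lists about as often as those of the rest of chromosome 19. Sharing required an overlap of 1 bp or more with any peak of the other condition. The numbers in the peak names ran to 173974 in the control list and to 161598 in the knockdown list, far above the number of peaks listed, and the rule that chose the listed ones is not given in the sources used here. A peak listed for 1 condition alone may therefore have been called in the other as well. Over all chromosomes 20.2% of the control and 19.6% of the knockdown peaks were shared. In the clusters 31 control peaks overlapped 31 knockdown peaks, each with 1 partner, which was 20.7% of the control peaks (15.0% to 27.8%) and 16.9% of the knockdown peaks (12.2% to 23.0%). The rest of chromosome 19 had shares of 20.6% (17.1% to 24.7%) and 19.3% (16.0% to 23.1%). The difference was 0.0318 points in control cells (-6.95 to 8.02) and -2.34 points in knockdown cells (-8.42 to 4.599). Of the 31 pairs, 12 lay in the first interval, 1 in the second, 2 in the third and 16 in the fifth, and none of the 5 control and 6 knockdown peaks of the fourth interval was shared. All 31 pairs had the same strand in both lists, as did all 91 one-to-one pairs on the rest of chromosome 19 and 1991 of 1994 over all chromosomes.

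Within the clusters, sharing went with width. Of the wide peaks 14 of 38 in control cells (36.8%, 23.4% to 52.7%) and 17 of 55 in knockdown cells (30.9%, 20.3% to 44.0%) were shared, against 17 of 112 narrow peaks in control cells (15.2%, 9.70% to 23.0%) and 14 of 128 in knockdown cells (10.9%, 6.63% to 17.5%). On the rest of chromosome 19 wide and narrow peaks differed little, with 22.0% and 20.5% shared in control cells and 20.6% and 19.1% in knockdown cells. On the other chromosomes wide peaks were shared more often than narrow ones, in 31.4% against 18.96% of cases in control cells and in 25.8% against 18.5% in knockdown cells. A wide peak also has more bases at which an overlap can occur, and the part of this in the shares was not tested. Shared peaks of the clusters had a median width of 830 bp in control cells and 1179 bp in knockdown cells, and list-specific ones of 318 bp and 337 bp.

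**Figure D4:**
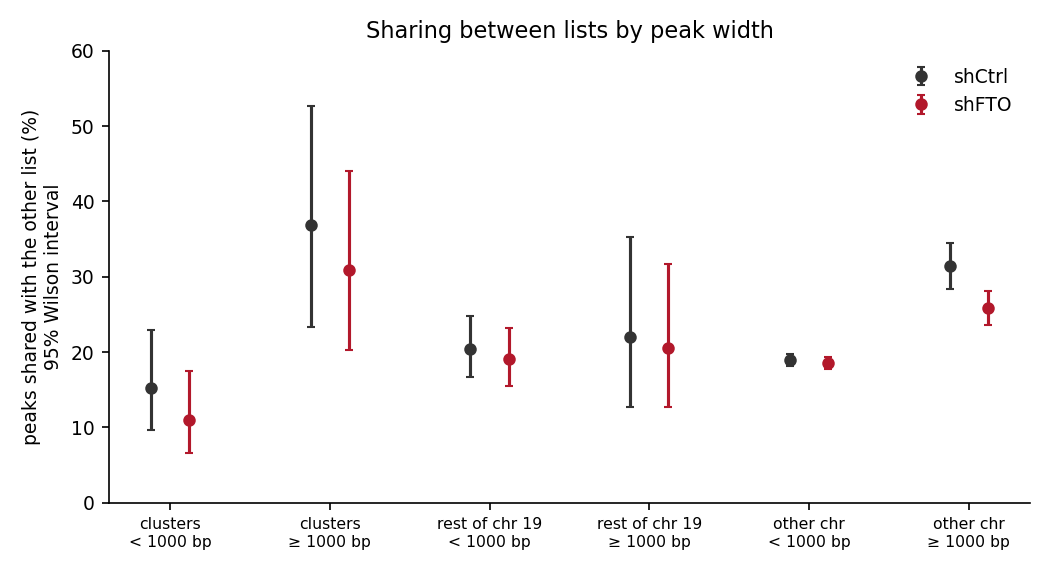
Share of peaks that overlap a peak of the other list (vertical axis, %) for peaks under and of at least 1000 bp in the zinc finger clusters, on the rest of chromosome 19 and on the other chromosomes, with shCtrl in dark grey, shFTO in red and bars for the 95% Wilson interval. In the clusters the share rises from 15.2% to 36.8% in control cells and from 10.9% to 30.9% in knockdown cells, while on the rest of chromosome 19 it stays between 19.1% and 22.0%.

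Most list-specific peaks had no peak of the other list nearby, in the clusters as on the rest of chromosome 19. The nearest peak of the other list, on either strand, lay at a median distance of 20635 bp from the 119 list-specific control peaks and of 18287 bp from the 152 list-specific knockdown peaks. The rest of chromosome 19 had medians of 10348 bp and 12883 bp. Such distances also depend on the number of peaks per megabase, which was not computed for the rest of the chromosome. Its part in the difference was not tested. When peaks of both lists within 5000 bp on the same strand were joined to loci, a distance chosen after the data were seen, the clusters had 242 loci, of which 49 held peaks of both lists (20.3%, 15.7% to 25.8%), 85 held control peaks alone and 108 held knockdown peaks alone. The rest of chromosome 19 had 609 loci, of which 156 (25.6%, 22.3% to 29.2%) held peaks of both lists. With joining distances of 2000 and 10000 bp the shares were 15.4% and 26.9% in the clusters and 17.4% and 33.4% outside them. At each of these distances most loci held peaks of 1 list alone, in the clusters as on the rest of chromosome 19. Loci were not formed on the other chromosomes.

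The clusters had more peaks and a larger summed peak length in knockdown than in control cells, at the same median width of 359 bp. There were 183 peaks against 150, a ratio of 1.22, which compares with 1.07 on the rest of chromosome 19 and 1.02 over all chromosomes. They covered 153897 bp against 104459 bp, a ratio of 1.47, with a mean width of 841 bp against 696.4 bp. The mean width thus had a ratio of 1.21 in the clusters, below the 1.31 over all chromosomes, while the ratio of peak numbers was above that of all chromosomes. On the rest of chromosome 19 the summed length had a ratio of 1.23, and over all chromosomes of 1.34. There were 55 wide peaks against 38, a ratio of 1.45, which was below the 1.62 over all chromosomes. Of the 271 list-specific peaks of the clusters 152 were listed for knockdown cells alone and 119 for control cells alone, so that 56.1% were shFTO-only (50.1% to 61.9%). Elsewhere on the chromosome the share was 52.1% (48.5% to 55.7%), and over all chromosomes it was 50.8%.

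The first interval contributed much of this difference. Because the intervals also hold genes of other kinds, how many of its peaks lie in zinc finger genes was not determined. There, knockdown cells had 69 peaks against 47 in control cells and a summed length of 48633 bp against 23848 bp, a ratio of 2.04, and 57 of 92 list-specific peaks were shFTO-only (62.0%, 51.8% to 71.2%). The fifth interval had 89 against 74 peaks and a length ratio of 1.47. In the second and the third interval knockdown cells had fewer peaks than control cells and the smaller summed length, with ratios of 0.802 and 0.847. In the fourth interval the length ratio was 2.20, from 6 and 5 peaks. Without the first interval, 53.1% of the list-specific peaks of the clusters were shFTO-only (45.8% to 60.2%), and the length ratio was 1.31. The intervals of these shares count peaks of 1 library pair per condition, so they do not measure how far the conditions differ. The wide peaks of the clusters also had a higher median width in knockdown cells, 2044 bp (1822 to 2205 bp) against 1556 bp (1326 to 2315 bp) in control cells. The intervals overlap and take in counting error alone, and this difference between the conditions was not tested.

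The 31 shared pairs compare the width at the same locus. In 13 pairs the peak was wider in knockdown cells, in 7 it was wider in control cells, and in 11 both edges were identical. The summed width of the pairs was 38946 bp in knockdown and 31357 bp in control cells, a ratio of 1.24. Identical edges were less frequent than on the rest of chromosome 19, with 35.5% of pairs (21.1% to 53.1%) against 59 of 91 pairs, or 64.8% (54.6% to 73.9%). On the other chromosomes it was 55.8% of pairs (53.5% to 58%). Within the clusters, identical edges went with narrow peaks. Of the 12 pairs that were narrow in both lists, 10 had identical edges, and of the 12 pairs that were wide in both lists, 1 did. On the rest of chromosome 19 the corresponding numbers were 54 of 77 and 5 of 11, and on the other chromosomes 982 of 1491 and 62 of 242. In 5 pairs of the clusters the peak was wide in knockdown cells alone, and in 2 pairs it was wide in control cells alone. Such pairs cannot have identical edges.

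**Figure D5:**
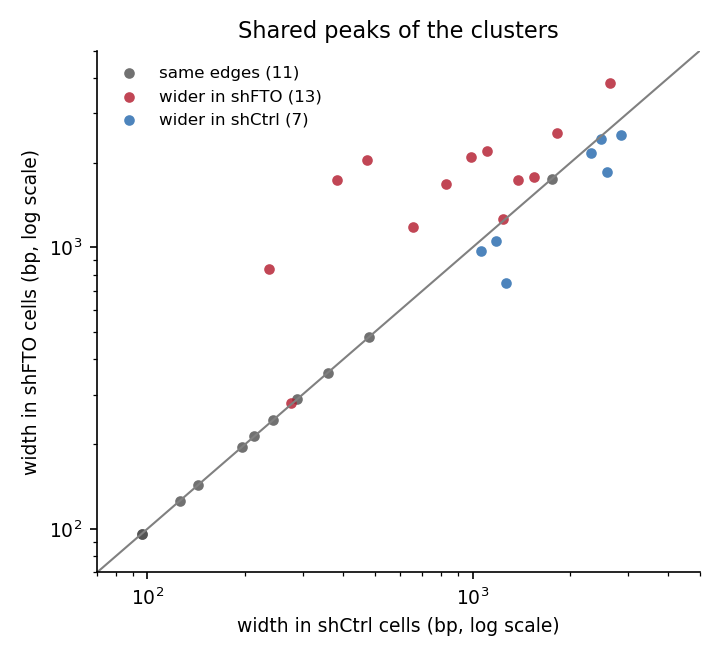
Width in shFTO cells (vertical axis, bp, log scale) against width in shCtrl cells (horizontal axis, bp, log scale) for the 31 peaks of the zinc finger clusters that overlap a peak of the other list, with the grey line at equal width. Of the pairs, 11 have the same edges and lie on the line, mostly below 500 bp, 13 lie above it (wider in shFTO) and 7 below it (wider in shCtrl).

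Where a pair differed at a single edge, it was mostly the downstream edge with respect to the listed strand. Among the 14 pairs of the clusters that shared exactly 1 edge, 13 shared the upstream (5′) edge and differed at the downstream (3′) edge, which is 92.9% (68.5% to 98.7%). On the rest of chromosome 19 this held for 11 of 23 pairs, or 47.8% (29.2% to 67.0%), and on the other chromosomes for 66.1% of 634 pairs (62.3% to 69.7%). The downstream edge reached further in knockdown cells in 12 pairs of the clusters and less far in 7, and the upstream edge reached further in 6 and less far in 1. Of the 7589 bp by which the knockdown peaks of these pairs were longer in sum, 5976 bp lay at the downstream edge and 1613 bp at the upstream edge. On the rest of chromosome 19 the net gain was 1441 bp downstream and 4514 bp upstream. On the other chromosomes it was 135651 bp downstream and 74284 bp upstream over 1872 pairs. There the downstream edge reached further in knockdown cells in 436 pairs and less far in 177. A larger gain downstream than upstream was thus not particular to the clusters. The edge comparison was chosen after the pairs were seen.

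The largest gains in width were found at the following loci, all on chromosome 19 of hg19. The peak on the plus strand at chr19:57764441-57764913 in control cells, 473 bp wide, reached to 57766484 in knockdown cells, where it was 2044 bp wide. Its listed scores were 294.92 and 1119.75 respectively. On the minus strand, the peak at chr19:58084625-58085008 was 384 bp wide in control cells and lay inside a knockdown peak of 1733 bp, from 58083315 to 58085047, with low scores of 70.4 and 88.1. The third was the widest peak of the clusters in knockdown cells. It began at 11942183 on the plus strand in both lists and was 3834 bp wide in knockdown cells and 2657 bp in control cells, where it was also the widest peak of the first interval.

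The largest losses were smaller than these gains. The peak at chr19:20307773-20310361 on the plus strand was the widest of the second interval in control cells, with 2589 bp, and its width fell by 730 bp to 1859 bp in knockdown cells through an earlier downstream edge. It was the 1 shared peak of this interval, and its scores of 80.95 and 86.91 were near the lower end of both lists. At chr19:56670993-56672262, on the plus strand, the width was 1270 bp in control cells and 746 bp in knockdown cells. At chr19:53570644-53573515, on the minus strand, it was 2872 bp and 2506 bp. All 3 of these pairs were at least 746 bp wide in both lists.

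The highest and the widest peaks of each interval were 9 different peaks in the control list, of which 7 had no partner in the other list, and 9 in the knockdown list, of which 8 had none. Over all chromosomes 79.8% of the control and 80.4% of the knockdown peaks had no partner, so these counts are near the background. The shared ones among them were the widest of the first interval in both lists and the widest control peak of the second interval, described above. In the control list the highest score of the first interval, 3100, belonged to several peaks, the widest of which spanned chr19:10395791-10397203 on the plus strand (1413 bp). The single control peak of 3100 in the fifth interval lay at chr19:54972978-54974894 on the minus strand (1917 bp). The widest control peak of the clusters, with 3088 bp and a score of 535.08, lay at chr19:53342205-53345292 on the minus strand. In the third interval 1 control peak was both the widest and the highest, with 3004 bp and a score of 2132.24, at chr19:36726561-36729564 on the plus strand. The highest control peak of the second interval had a score of 767.17 (chr19:21909226-21910791, minus strand, 1566 bp). The highest control score of the fourth interval was 115.29 (chr19:44833187-44834089, minus strand, 903 bp), and its widest peak had 915 bp and a score of 103.45 (chr19:44636100-44637014, plus strand).

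In the knockdown list the highest score of the clusters, 3161.08, was that of a peak of 1791 bp at chr19:58805464-58807254 on the plus strand. The widest of the knockdown peaks of 3100 in the first interval spanned chr19:10623533-10625705 on the minus strand (2173 bp). In the fifth interval the widest knockdown peak had 3576 bp and a score of 532.89 (chr19:53642234-53645809, minus strand). The second interval had its widest peak, of 3025 bp, at chr19:21299613-21302637 on the plus strand with a score of 131.47, and its highest score, 284.98, at chr19:21475158-21477541 on the minus strand. In the third interval the peak at chr19:37853008-37855343 on the plus strand was both the widest, with 2336 bp, and the highest, with a score of 868.75. The fourth interval had its highest score, 627.31, at chr19:44270685-44271859 on the minus strand and its widest peak, of 1923 bp, at chr19:44500440-44502362 on the plus strand. Several of the widest peaks thus had scores far below 3100 in both lists, as the medians of the wide peaks also show.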

How the data were processed

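Peak lists of 2 conditions (shCtrl and shFTO, 1 IP and 1 input library each) were used. The submitters' processing notes name cutadapt 1.9.3 (a read trimmer), HISAT2 (an aligner) and the build hg19, without their settings. The peak names are in the form MACS writes, and its settings are not given in the sources used here. The deposited score was made by the authors' peak caller and was not rescaled. Read totals were not used here, so depth is unknown, and a wide peak can also depend on depth and on merging by the caller. How reads that fit several near-identical zinc finger genes were placed is not given in the sources used here. Positions are 1-based, with 1 added to the listed start.

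Overlaps, widths and shares were computed in Python 3.11.15 with pandas 2.3.3 and SciPy 1.17.1, and checked on simulated lists. Medians have the exact binomial interval of their order statistics, and shares the Wilson interval, both at 95%. Differences of shares combine both intervals by Newcombe's method. The named peaks are, for each interval and list, the highest-scoring (ties by width) and the widest, and the 3 pairs with the largest gain and loss. Intervals and members were chosen with earlier results of these data known. Alternatives covered the overlap rule, the score limit, merging within 100 bp, the interval border, each interval left out and the comparison set.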

Additional observations from a re-analysis of the deposited data

How the results depend on the processing

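Of 206 alternative values, 187 stayed within the error of the reported one (or within 1.5 times for counts and ratios), 17 moved and 2 reversed. Some of the 187 could not differ from the reported value. No peak crossed an interval border, and all shared pairs of chromosome 19 had the same strand, so these alternatives changed nothing. The shared share of the clusters lay between 17.3% and 26.2% in control cells and between 14.2% and 19.2% in knockdown cells over all alternatives, and the shFTO-only share between 53.1% and 57.3%. Keeping peaks at or above the median score left 84 control and 99 knockdown peaks, with 34.5% and 39.4% wide. Leaving out the fifth interval left 76 and 94 peaks, and leaving out the first left 114 knockdown peaks with a median width of 539 bp and a median score of 204.6. With a limit of 500 bp the share of wide peaks was 39.3% and 42.6%, and with 2000 bp 8.67% and 15.9%, in control cells 6.399 points above the rest of chromosome 19. Under all alternatives this difference stayed above 0 in both lists (from 6.399 to 18.3 and from 11.4 to 21.6 points). Set against the other chromosomes in place of the rest of chromosome 19, the difference in median score reversed, from -93.8 to 42.3 in control cells and from -135.3 to 34.0 in knockdown cells, since the rest of chromosome 19 has higher scores. The median score of wide peaks stayed lower in the clusters under the alternatives run for it (differences from -2565 to -521 in control and from -2151 to -273.1 in knockdown cells). The alternatives for the share and score of wide peaks, the median-score limit against the whole other list, and leaving out intervals for the shFTO-only share and the pairs were chosen after seeing the data.

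No paired analysis was possible because the conditions hold a single IP and input pair each, and there was no replicate to leave out. Genes and motifs under the peaks, listed as results for an hg19 annotation, were not analysed here.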
